A study of Mus musculus with 6 samples.

Results

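Purified mouse platelets were sequenced as polyA RNA from pools prepared on 3 days, and the 2 libraries of the first day were compared with the 4 libraries of the 2 later days. The 2 libraries, 1 of each genotype, are 2 of 6 in all. They were chosen from the measured values: the first day was selected on its levels of red cell transcripts, above all Hba-a1, Hbb-bs and Alas2. Every difference between that day and the later days is therefore given as a description, with no p-value for any gene, and tests are kept to contrasts that the choice did not use, in the same 6 libraries. The labels number the pools as batches 1 to 3 and the series' design text speaks of 3 preparation days. These are taken to be the same and are called days 1, 2 and 3 here.

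All mice were males on the BalB/c background, either wild type or littermates of genotype Nxf1+/C587R, heterozygous for an amino acid change in Nxf1, which encodes the main mRNA export receptor. Platelets were purified from single males, each suspension was checked for CD41-positive events by flow cytometry, and suspensions of 1 genotype that passed the purity limit were pooled. The sources used here do not give the number of animals in a pool, so the spread between libraries is the spread between pools. The 3 wild-type libraries were also deposited in another series. On each day 1 wild-type and 1 mutant pool were made, and the sample names place all 6 libraries in 1 sequencing lane. Of the markers that define the sample, Itga2b encodes CD41, an integrin chain. It was at 6836 to 9276 CPM in the 6 libraries (per-million counts after TMM scaling, a correction for library composition). Pf4, a platelet chemokine, was at 7687 to 10871 CPM in the 6 libraries.

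Platelets are shed by megakaryocytes, have no nucleus and carry RNA that their parent cell packed into them. Red cells are likewise anucleate in mammals. Their youngest circulating form, the reticulocyte, still holds RNA, most of it encoding the alpha and beta chains of hemoglobin, with transcripts for heme synthesis, the membrane skeleton and the clearance of organelles. Megakaryocytes and red cells arise from a common progenitor, and a number of erythroid genes are also transcribed in megakaryocytes. In bulk RNA, more cells of a type and more RNA per cell cannot be told apart.

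Total counts ran from 25189231 to 29421549 per library over 9822 genes, and at least 9820 of these had a count in every library, so the deposited table holds detected genes. Deviations from the genotype means correlated within each day, at 0.603, 0.422 and 0.609 across 8080 genes for days 1, 2 and 3. Within each genotype no 2 libraries agreed within sampling noise. The markers of other blood cells given here were low, with 1 exception. The B cell markers Cd79a, Cd79b, Ms4a1 and Ighm lay at 5.70 to 94.1 CPM, the neutrophil markers S100a8 and S100a9 at 2.28 to 10.3 CPM, and Cd3d of T cells and Csf1r, Cd68 and Adgre1 of macrophages were each under 2 CPM in all 6 libraries. Lyz2, a lysozyme gene of myeloid cells, was at 1148 to 2080 CPM. None of these markers was at 0. Ngp, Camp, Cd3e, Cpa3 and Mcpt8 were not analysed here. Trac and Lck of T cells and Cdh5 and Kdr of endothelium were analysed, but their values are not reported here. Together, 21 T and NK cell genes held 0.00488% to 0.00851% of counts in the 6 libraries.

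The hemoglobin genes set day 1 apart. The 4 rows of the adult globins, Hba-a1 and Hba-a2 (alpha chain) and Hbb-bs and Hbb-b1 (beta chain), held 4.81% of all counts in the wild-type library of day 1 and 3.97% in the mutant library. They held 0.518% and 0.464% on day 2 and 0.673% and 0.599% on day 3, in the same order of genotypes. Both day 1 libraries lay well above the other 4, and the wild-type library of each day was a little above the mutant one.

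Since the selection rests on these genes, the stretches of DNA just before their start sites are shown, with that of Alas2, the erythroid form of the first enzyme of heme synthesis. Each is the 250 bases before the RefSeq start in build GRCm38.p6. These are reference sequences, and those of the BalB/c mice were not examined and may differ, above all at the beta globins. Capitals mark matches on either strand to TGATAA, with A allowed as its first and G as its last letter, which GATA factors read, such as the erythroid and megakaryocytic regulator GATA1, and matches to CCNCNCCC, the CACC-type letters read by Klf1-like factors. Hba-a1 lies on the forward strand of chromosome 11, with the window at chr11:32283422-32283671. Hbb-bs is on the reverse strand of chromosome 7, at chr7:103827929-103828178. The window of Alas2 is on the forward strand of the X chromosome, at chrX:150547167-150547416.
Hba-a1: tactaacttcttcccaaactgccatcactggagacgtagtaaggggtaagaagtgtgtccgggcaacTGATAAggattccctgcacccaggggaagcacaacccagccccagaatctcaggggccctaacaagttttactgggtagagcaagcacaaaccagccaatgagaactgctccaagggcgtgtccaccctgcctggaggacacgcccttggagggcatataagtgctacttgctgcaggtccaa
Hbb-bs: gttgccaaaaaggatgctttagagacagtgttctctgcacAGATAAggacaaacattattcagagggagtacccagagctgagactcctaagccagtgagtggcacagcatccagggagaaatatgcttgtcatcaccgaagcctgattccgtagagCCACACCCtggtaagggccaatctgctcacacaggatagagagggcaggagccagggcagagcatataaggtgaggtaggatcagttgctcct
Alas2: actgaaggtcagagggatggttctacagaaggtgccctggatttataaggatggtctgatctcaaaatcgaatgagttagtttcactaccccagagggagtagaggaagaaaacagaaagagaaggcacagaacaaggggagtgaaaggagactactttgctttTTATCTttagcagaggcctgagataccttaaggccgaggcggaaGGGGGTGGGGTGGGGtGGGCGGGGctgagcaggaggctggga
The Hba-a1 window held 1 GATA match, at base -183 from the start, and no CACC match. That of Hbb-bs held 1 GATA match at -210 and 1 CACC match at -93. In the Alas2 window 1 GATA match stood at -86 and 4 overlapping or adjoining CACC matches lay nearer the start. Matches of these letters are common: 27.1% of 27025 windows of that length held a GATA match and 45.6% a CACC match. Among the 7606 tested genes with a window the shares were 16.9% and 64.5%. A match is a description of letters and not of binding.

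Across the whole table, 55 genes were called higher on day 1 and 3 lower, where called means a Benjamini-Hochberg adjusted p under 0.05 in edgeR's quasi-likelihood fit with genotype as a covariate. These are 0.56% and 0.0305% of 9822 genes. The day was selected on this contrast, so the count sorts genes and nothing is read from it. It also depends on how the later days enter. With each day given its own mean, 805 genes were called, 493 higher and 312 lower, all 58 among them. Without day 2 the count was 1525, without day 3 it was 602, and when single libraries were left out it ran from 31 without wild-type day 1 to 305 without wild-type day 2, with 33 without mutant day 1 and 113 without mutant day 2. Leaving out a whole day was chosen after seeing the data. Of the 55 genes, 34 were over 2-fold higher and 21 over 4-fold, and 1 of the 3 lower genes was over 2-fold lower. In 51 of the 55 both day 1 libraries lay above all 4 later ones, while Prg4, Pde4d, Rhob and Zfand5 overlapped. Over all genes, 5.31% had both day 1 libraries above the other 4 and 7.17% had both below.

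**Figure D1:**
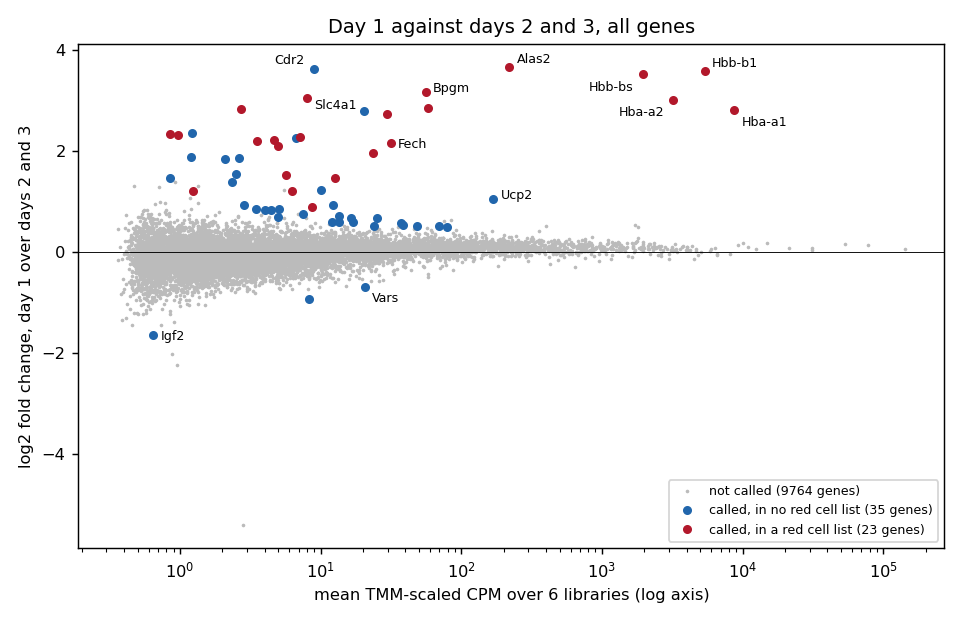
Log2 fold change of day 1 over days 2 and 3 (vertical axis) against the mean CPM over 6 libraries (horizontal log axis) for each of all genes tested; red points are called genes in a red cell list, blue points other called genes and grey points the rest. The 4 adult globins and Alas2 sit between 2.82 and 3.66, far above the band of genes around 0.

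Among the globins, 5 of 8 measured genes were called higher and 0 lower, with a median log2 fold change of 2.01 against -0.003 over all genes. Hba-a1 stood at 21556 CPM in the wild-type and 19107 in the mutant library of day 1. It stood at 2899 and 2704 on day 2 and at 2887 and 3011 on day 3, a mean of 2875 ± 127 (SD, n = 4). The day 1 libraries were far above a tight group of 4, and the log2 fold change was 2.82 ± 0.13 (SE). Hba-a2, a near-identical copy, was at 8189 and 7149 CPM on day 1 and between 869 and 1016 CPM on the later days, a log2 fold change of 3.02 ± 0.13. The 300-base windows around the starts of these genes share a run of 297 bases, so how reads were divided between the 2 rows is uncertain and their sum is the firmer value.

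The beta chain genes differed more than the alpha chain genes. Hbb-b1 was at 15065 and 12566 CPM on day 1, at 1156 and 904 on day 2 and at 1308 and 1216 on day 3, a log2 fold change of 3.59 ± 0.14. Hbb-bs was at 5348 and 4677 CPM on day 1 and between 351 and 500 CPM in the other 4 libraries, a log2 fold change of 3.51 ± 0.13. In both beta rows the wild-type library lay above the mutant one on every day. BALB/c mice and the reference strain carry different beta globin haplotypes, RefSeq places Hbb-b1 outside the main chromosome 7 sequence, and the sources used here do not name the locus the authors counted, so the division between the 2 beta rows is uncertain too. Counted together, there were 686 and 657 beta counts per 1000 alpha counts on day 1. On day 2 there were 422 and 351, and on day 3 there were 467 and 414. The 2 day 1 libraries had the highest beta to alpha ratios of the 6.

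Of the 4 minor and embryonic globins 1 was called. Hbq1a, a theta chain gene, was called higher with a log2 fold change of 1.20 ± 0.25, from 2.24 and 1.75 CPM on day 1 to between 0.779 and 0.969 CPM later. Its copy Hbq1b was at 24.7 and 28.0 CPM on day 1 and 16.7 to 22.1 CPM later, above all 4 but not called, with a log2 fold change of 0.41 ± 0.13. The embryonic genes Hba-x and Hbb-y stayed near or under 1 CPM in every library and were not called. Ahsp, which encodes a chaperone of alpha chains, and Hbb-bt were not analysed here.

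Of 15 heme synthesis genes 4 were called higher and 0 lower, with a median of 0.34. Alas2 was at 590 CPM in the wild-type and 547 CPM in the mutant library of day 1. It was at 29.2 and 34.8 CPM on day 2 and at 50.3 and 66.9 CPM on day 3. The difference, a log2 fold change of 3.66 ± 0.30, was the largest of the called genes, and the later libraries also differed among themselves, with a mean of 45.3 ± 17.0 CPM (SD, n = 4). Fech, which encodes ferrochelatase, the last enzyme of the pathway, was at 62.7 and 66.5 CPM on day 1, 9.85 and 18.7 CPM on day 2 and 12.2 and 19.4 CPM on day 3, a log2 fold change of 2.16 ± 0.13. Its later levels were higher in mutant than in wild-type libraries, whereas on day 1 the genotypes were nearly level. The mitochondrial carriers followed: Slc25a39, linked to glutathione import, was at 69.5 and 68.5 CPM against 8.31 to 11.8 CPM (log2 fold change 2.74 ± 0.13). Slc25a37, mitoferrin 1, which carries iron into mitochondria, was at 16.5 and 13.9 CPM against 2.25 to 3.86 CPM (2.27 ± 0.17). The middle enzymes did not follow: Alad, Urod, Uros and Cpox were not called, and Alad and Cpox were slightly negative at -0.14 and -0.16.

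Of 17 membrane genes 4 were called higher and 0 lower, with a median of 0.23. Slc4a1, the band 3 anion exchanger, was at 20.3 and 18.4 CPM on day 1, 1.46 and 1.88 CPM on day 2 and 2.42 and 3.56 CPM on day 3 (log2 fold change 3.05 ± 0.20). The 6 libraries fell into 3 steps by day, with day 1 far above the others. Tspan33, a tetraspanin, was at 2.24 and 1.45 CPM against 0.258 to 0.519 CPM (2.35 ± 0.32). Membrane genes that were abundant in the platelet libraries differed little: Epb41, protein 4.1, was at 799 and 867 CPM against 595 to 796 CPM, and Aqp1, the water channel, at 353 and 447 CPM against 308 to 559 CPM. Neither was called.

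Of 15 red cell enzyme genes 3 were called higher and 0 lower, with a median of 0.14. Bpgm, which makes the 2,3-bisphosphoglycerate that loosens oxygen from hemoglobin, was at 165 CPM in the wild-type and 109 CPM in the mutant library of day 1. It was at 12.4 and 9.80 CPM on day 2 and 20.4 and 17.1 CPM on day 3, a log2 fold change of 3.17 ± 0.20. Car2, a carbonic anhydrase, was at 10.2 and 9.95 CPM against 3.10 to 6.07 CPM (1.20 ± 0.18). Cat, catalase, was abundant everywhere, at 1298 and 1266 CPM on day 1 and 1024 to 1296 CPM later, and was not called.

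The regulators of erythropoiesis were nearly level, with 1 of 17 called higher, 0 lower and a median of 0.04. The exception was E2f2, a cell cycle factor of late erythroblasts, at 9.20 and 11 CPM against 2.54 to 4.71 CPM (1.52 ± 0.18). Gata1 was at 156 and 197 CPM on day 1 inside a later range of 122 to 224 CPM, with a log2 fold change of -0.01 ± 0.18. Gfi1b and Tal1, which act beside Gata1 in both lineages, had log2 fold changes of -0.01 and 0.09 and were not called. Klf1 was not analysed here.

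Genes of reticulocyte maturation gave 6 of 43 called higher, 0 lower and a median of 0.22. Ube2l6, a ubiquitin and ISG15 conjugating enzyme, was at 133 and 137 CPM on day 1 and 13.8 to 23.6 CPM later (2.85 ± 0.14). Trim10, a ubiquitin ligase of terminal erythroid cells, was at 8.15 and 4.73 CPM against 0.416 to 1.26 CPM (2.82 ± 0.27), and Ube2c, a ubiquitin-conjugating enzyme of mitosis, at 2.32 and 1.86 CPM against 0.286 to 0.646 CPM (2.31 ± 0.29). Hagh, a glyoxalase, was at 8.0 and 6.67 CPM against 1.27 to 1.74 CPM (2.19 ± 0.18). Ybx3, a repressor of translation in erythroid cells, was at 23.7 and 20.4 CPM against 6.41 to 9.19 CPM (1.47 ± 0.13). Rsad2, which encodes the antiviral enzyme viperin, was at 46.3 and 46.6 CPM against 8.61 to 17.7 CPM (1.95 ± 0.15). The abundant members barely moved: Bnip3l, which drives the removal of mitochondria, was at 1463 and 1439 CPM on day 1 and 1174 to 1409 CPM later and was not called.

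Over all 6 red cell lists, 23 of 115 measured genes were called higher, which is 20% of the lists and 41.8% of the 55 genes, and 0 were called lower. In 42 of the 115 both day 1 libraries lay above the other 4 and in 0 both lay below, beside 5.31% and 7.17% of all genes. With library size alone the medians of the enzymes and the regulators were no longer above 0, at -0.002 and -0.12. Of their genes 1 of 15 and 0 of 17 were called. The median of all genes was -0.15 under that scaling, below both, and 26 of 9822 genes were called higher. The lists were assembled with results of these data known, so these counts are not independent evidence of a direction.

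**Figure D2:**
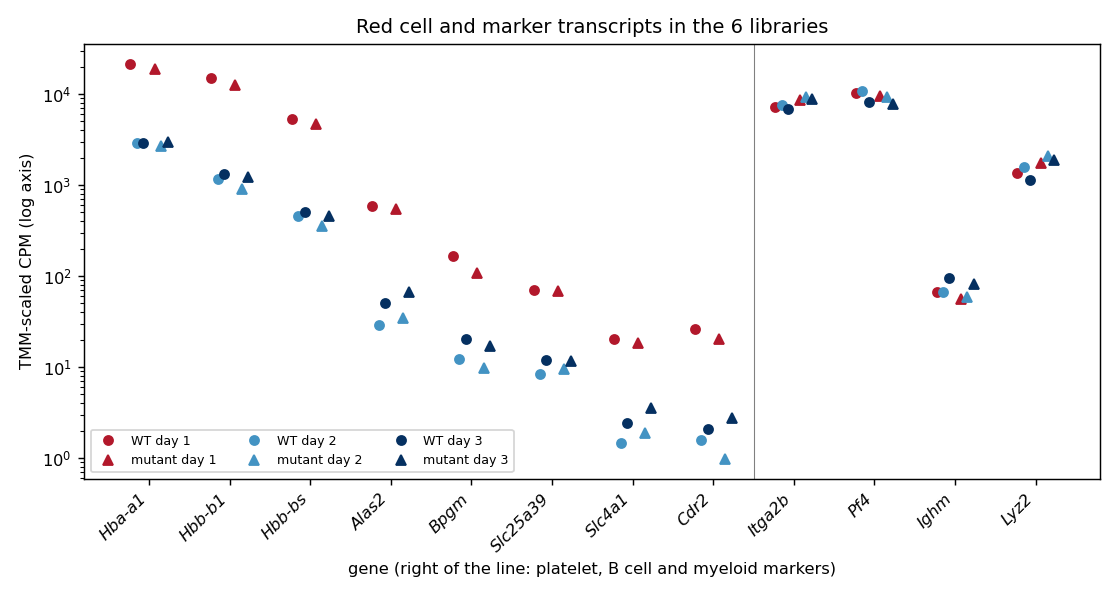
TMM-scaled CPM (log axis) of 8 genes called higher on day 1 and, right of the line, 4 markers of platelets, B cells and myeloid cells; circles are wild-type and triangles mutant libraries, coloured by day. The day 1 points lie above the other 4 for each of the 8 genes, with Hba-a1 at 21556 and 19107 CPM against at most 3011 CPM, and among them for Itga2b, Pf4 and Lyz2.

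The other 32 genes were in none of the 6 red cell lists and had a median log2 fold change of 0.84. Cdr2, which encodes a coiled-coil protein known as an autoantigen, rivalled Alas2: it was at 26.3 and 20.1 CPM on day 1, 1.58 and 0.980 CPM on day 2 and 2.10 and 2.74 CPM on day 3 (3.62 ± 0.22). Fam220a was at 56.5 and 38 CPM against 5.07 to 8.86 CPM (2.79 ± 0.18). Gda, guanine deaminase, was at 14.5 and 13.6 CPM against 2.16 to 4.04 CPM (2.25 ± 0.17). These 3 genes matched the listed red cell genes in size. Cdr2 and Gda, like Ucp2, Igha, Slc48a1, Ciita and Igf2 below, fall outside the rule for named genes and were chosen after their values were seen.

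Most of the remaining genes differed less. Ucp2, an uncoupling protein of the inner mitochondrial membrane, was the most abundant of the 32: it was at 255 and 262 CPM on day 1 and 108 to 137 CPM later (1.06 ± 0.12). Slc48a1, a heme transporter, was at 45.8 and 50.8 CPM against 28.6 to 38.8 CPM (0.54 ± 0.11). Igha, the constant region of IgA, was at 4.87 and 4.96 CPM against 2.62 to 2.82 CPM (0.86 ± 0.18), in contrast with the B cell list below. Psme3, a proteasome activator, was at 19.5 and 16.7 CPM against 8.09 to 10.6 CPM (0.94 ± 0.13), the only member called of 41 proteasome genes.

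Of 28 immediate early and heat shock genes, 2 were called higher, Klf6 (0.59 ± 0.13) and Hspa1b (1.47 ± 0.34). Hspa1b, an inducible chaperone, was at 1.93 CPM in the wild-type and 1.04 CPM in the mutant library of day 1 and up to 0.898 CPM later, so the mutant value was close to the later range. Of 40 interferon-stimulated genes the called members were Rsad2 and Isg15. Isg15, the ubiquitin-like modifier that Ube2l6 attaches, was at 5.84 and 2.68 CPM on day 1, and its mutant value was barely above the 2.66 CPM of wild-type day 2 (0.93 ± 0.20). Calls of Vars, Hspa1b, Isg15, Klf6, Hbq1a, Psme3 and Car2 were lost in at least 3 of the alternative fits, while 16 of the 29 named genes were called in all of them.

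The 3 genes called lower on day 1 were Vars, Ciita and Igf2, beside 312 lower with each day given its own mean. Vars, which encodes the valine tRNA synthetase, was at 16.2 and 13 CPM on day 1, 20.6 and 18.0 CPM on day 2 and 31.6 and 23.9 CPM on day 3 (-0.69 ± 0.16). Its day 2 values lay nearer to day 1 than to day 3. Ciita, the switch of MHC class II genes, was at 4.44 and 6.0 CPM against 7.76 to 12.1 CPM (-0.92 ± 0.19), and Igf2, a fetal growth factor, at 0.232 and 0.298 CPM against 0.614 to 1.00 CPM (-1.63 ± 0.38).

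The platelet's own transcripts were nearly level on the scaled values. Of 37 platelet receptor, 24 granule cargo and 51 cytoskeleton genes, 0 were called by edgeR in either direction on day 1, with medians of 0.07, 0.08 and 0.05. These medians turned negative, to -0.08, -0.06 and -0.09, with library size alone, where the median of all genes was -0.15. Itga2b was at 7253 and 8703 CPM on day 1 inside the later range of 6836 to 9276 CPM. Pf4 was at 10277 and 9568 CPM inside 7687 to 10871 CPM, and Ppbp, the precursor of a neutrophil-attracting chemokine, at 9978 and 15924 CPM, the mutant value just above a later range of 8712 to 15674 CPM. Genotype separated Itga2b and Ppbp more than day did. The B cell list had a median of -0.30 with 0 of 27 genes called. In 3 of them both day 1 libraries lay below the other 4 and in 0 above, beside 7.17% and 5.31% of all genes. Its summed share of counts was 0.0392% to 0.0521% on day 1 and 0.0436% to 0.0883% later.

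Measured as shares of counts, the adult globin rows made up most of the gains of day 1. Gains were found in 2783 genes in the wild type and in 2508 in the mutant. All gains and all losses summed to the same size, as shares of a fixed total must. In CPM of the deposited totals, without TMM scaling, the adult globins of day 1 exceeded the mean of days 2 and 3 by 42158 in the wild type and by 34345 in the mutant. That was 96.8% of the excess of the 55 genes in each genotype, and 81.8% and 70.9% of the sum of all gains. The other 51 genes together held at most 0.08% of counts later and 0.206% in the wild type and 0.186% in the mutant on day 1. Losses were found in 7039 genes in the wild type, summing to -51557 CPM, and in 7314 genes in the mutant, summing to -48422 CPM. The 2 mitochondrial ribosomal RNAs together changed by -14788 CPM in the wild type and by -170 CPM in the mutant, each from 1 day 1 library. Among genes that lost in both genotypes, the largest loss was that of mt-Rnr2, the large mitochondrial ribosomal RNA and the most abundant gene, at -11676 CPM in the wild type and -3335 in the mutant, from a later mean of 145070. Fth1, the ferritin heavy chain, changed by -3164 and -1236 CPM, and Nrgn, neurogranin, by -1598 and -927 CPM.

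Taking 5.02% of counts for the 55 genes in the wild type, in place of 0.577% on day 2, shifts every other gene by -0.066 on the log2 scale, and by -0.063 against day 3. The same arithmetic gives -0.054 and -0.051 in the mutant. The measured medians of 9670 genes outside the 55 and the red cell lists, in shares of counts, were -0.013 against day 2 and -0.259 against day 3 in the wild type and -0.085 and -0.227 in the mutant. Between days 3 and 2, which hardly differ in globin share, the medians were 0.277 and 0.151. Over 112 platelet genes the medians of day 1 were -0.015 and -0.088 in the wild type and -0.051 and -0.130 in the mutant, against days 2 and 3. The differences in median between the later days were thus larger than the shift that the globin share gives by arithmetic.

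The composition of the excess is given by genotype as a description. The 55 genes were called in a fit with a single day 1 difference for both genotypes, which favours genes that rose in both. For each 1000 counts of Hba-a1 excess, Alas2 contributed 29.7 in the wild type and 30.7 in the mutant, Hbb-b1 746 and 714, Hbb-bs 263 and 265, and Hba-a2 389 and 383. Fech contributed 2.74 and 2.86, Slc25a39 3.17 and 3.56, Slc4a1 0.984 and 0.961 and Bpgm 7.98 and 5.91. Of the 55 genes, 42 agreed within 1.5-fold between the genotypes and 13 did not, from 0.263 of the wild-type value for Hspa1b to 7.44 times it for Prg4, a lubricin gene under 4 CPM. The wild-type and mutant differences come from separate libraries. All 55 genes were positive in both, and their log2 fold changes correlated at 0.918 (Pearson) and 0.908 (Spearman) across these genes, which were called on the same libraries. Over the 9767 other genes the Pearson value was 0.326. Genes of 1 library are not independent, and no p is given.

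**Figure D3:**
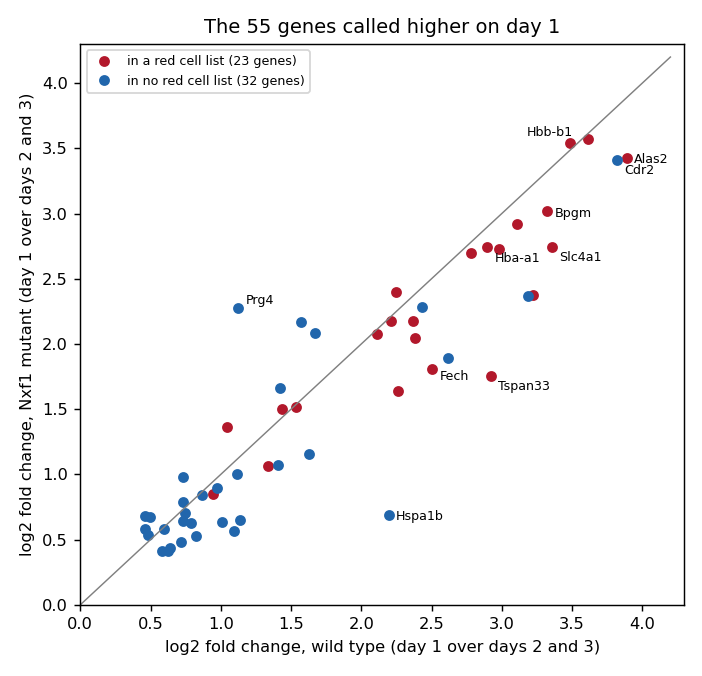
Log2 fold change of day 1 over days 2 and 3 in the wild type (horizontal axis) and in the mutant (vertical axis) for the 55 genes called higher; red points are in a red cell list and blue points are not, and the grey line marks equal values. Alas2, at 3.89 and 3.43, and Hbb-b1, at 3.61 and 3.57, lie near the line, and Hspa1b, at 2.20 and 0.69, lies far below it.

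Whether day 1 differed between the genotypes was tested by the interaction of genotype and day 1, which the choice of the day did not use. In edgeR 0 of 9822 genes passed in either direction (0%), with 87 at an unadjusted p under 0.05. DESeq2 and limma-voom called 0 as well, with 2 and 85 at an unadjusted p under 0.05. Without wild-type day 3, edgeR called 1. With 2 residual degrees of freedom the interval of each interaction is wide. For Hba-a1 the interaction on the log2 scale, mutant minus wild type, was -0.16 ± 0.34 (SE), for Hbb-b1 -0.04 ± 0.35, for Alas2 -0.47 ± 0.53 and for Fech -0.70 ± 0.29, each with an edgeR adjusted p of 1. These intervals leave room for differences of some size, and equal effects are not shown.

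Days 3 and 2 were compared, a contrast that the choice of day 1 did not use, with each day given its own mean and genotype as a covariate. The 4 libraries of these days are also the ones day 1 was set against, so this is no independent set of libraries, and the 2 sets of values are set side by side and not correlated. In all, 711 genes (7.24%) were higher on day 3 and 1007 (10.3%) lower, with a median size of 0.41 on the log2 scale among called genes. The split depended on the scaling, with 592 higher and 1653 lower under DESeq2 size factors, 894 and 896 under upper-quartile factors and 2287 and 164 with library size alone. The sum of 1718 calls also rested on single libraries: it was 97 without wild-type day 2, 433 without mutant day 2, 1018 without wild-type day 3, 995 without wild-type day 1 and 987 without mutant day 1. Of the 55 genes called on day 1, 16 rose and 2 fell, with a median of 0.18, and 42 were positive. In the 4 later libraries alone 13 rose and 2 fell, but without wild-type day 2 only 4 rose, without mutant day 2 only 6 and without mutant day 3 only 10.

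Alas2 rose from 29.2 and 34.8 CPM on day 2 to 50.3 and 66.9 CPM on day 3, a log2 fold change of 0.87 ± 0.09 (edgeR adjusted p = 2.07e-17), beside 3.66 for day 1. Both day 3 libraries lay above both day 2 libraries. Bpgm rose by 0.76 ± 0.11 (adjusted p = 1.13e-09), beside 3.17, and Slc4a1 by 0.83 ± 0.21 (adjusted p = 0.00129), beside 3.05. Trim10 rose by 1.23 and Cdr2 by 0.91, and E2f2, Car2, Slc25a37, Fam220a, Ube2l6, Rsad2 and Slc25a39 rose by 0.39 to 0.64. All of these passed at 0.05 in edgeR under each of 4 scalings. The globins moved less: Hbb-b1 rose by 0.30 ± 0.09 (adjusted p = 0.00507) and Hbb-bs by 0.25 ± 0.08 (adjusted p = 0.0237). Hba-a1 differed by 0.08 ± 0.09 (adjusted p = 0.589) and Hba-a2 by 0.16 ± 0.08 (adjusted p = 0.171), and both passed only under other scalings, Hba-a1 with library size alone. Fech and Ybx3 did not pass, at 0.15 and 0.07. The 2 genes that fell were Bbc3 and Gm4184, by 0.40 and 0.46, neither of which is in a red cell list; with library size alone Bbc3 no longer passed.

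The counts of rises and falls in the red cell lists between these days depended on the scaling, as did those of all genes. With TMM scaling, of 15 heme synthesis genes 4 rose and 2 fell, of 17 membrane genes 2 rose and 2 fell, and of 15 red cell enzyme genes 3 rose and 7 fell. Among those that fell were Prdx2, a peroxiredoxin, by 0.31 and Epb41 by 0.22, and both lost their call with library size alone. Over the 6 lists 18 of 115 rose and 25 fell, with a median of -0.07. With library size alone 36 rose and 6 fell, with a median of 0.14: 6 heme synthesis genes rose and 1 fell, 5 membrane genes rose and 0 fell, and 4 enzyme genes rose and 0 fell. DESeq2 size factors gave 18 and 41 over the 6 lists, and upper-quartile factors 19 and 25. Over all genes the median moved as well, from -0.002 with TMM scaling to 0.22 with library size alone, where 2287 rose and 164 fell. The median of the 6 lists lay below that of all genes under each of the 4 scalings. It was -0.12 beside -0.05 with DESeq2 size factors and -0.04 beside 0.03 with upper-quartile factors.

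B cell genes moved together on day 3: 18 of 27 rose and 0 fell, with a median of 0.47, and 18 to 25 rose under the 4 scalings. In the 4 later libraries alone 16 rose, and 3 rose without wild-type day 2, 10 without mutant day 2 and 11 without wild-type day 3, with 0 falling each time. Ighm, the heavy chain of IgM, went from 67.4 and 59.1 CPM to 94.1 and 82.0 CPM (0.48 ± 0.08, adjusted p = 2.27e-06), and Cd79b, a chain of the B cell receptor, from 9.60 and 7.68 CPM to 14.4 and 13.1 CPM (0.67 ± 0.12). On day 1 Ighm was at 66.5 and 56.3 CPM, level with day 2. Platelet lists went lower on day 3 with TMM scaling, 6 of 37 receptor, 9 of 24 cargo and 11 of 51 cytoskeleton genes, but with library size alone 10, 6 and 18 were higher instead and 2, 3 and 2 lower. The median of all genes shifted by 0.22 under that scaling. Of 79 nuclear genes of oxidative phosphorylation 27 fell with TMM scaling, and 4 fell and 11 rose with library size alone.

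The genes with the smallest p in that comparison were largely not red cell genes. Besides Alas2 and Bpgm, Actg1, a cytoplasmic actin, rose by 0.61 and Ets1, a transcription factor of lymphocytes, by 0.63, together with an unnamed gene. Bmp2, a growth factor, fell by 0.98, Gata1 by 0.67, Rasgrp3 by 0.62, H2-Q2 by 0.61 and 4931414P19Rik by 0.80. These 10 genes kept their direction and their call under the 4 scalings. Gata1 was at 209 and 224 CPM on day 2 and 122 and 152 CPM on day 3, and its day 1 values of 156 and 197 CPM lay between.

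**Figure D4:**
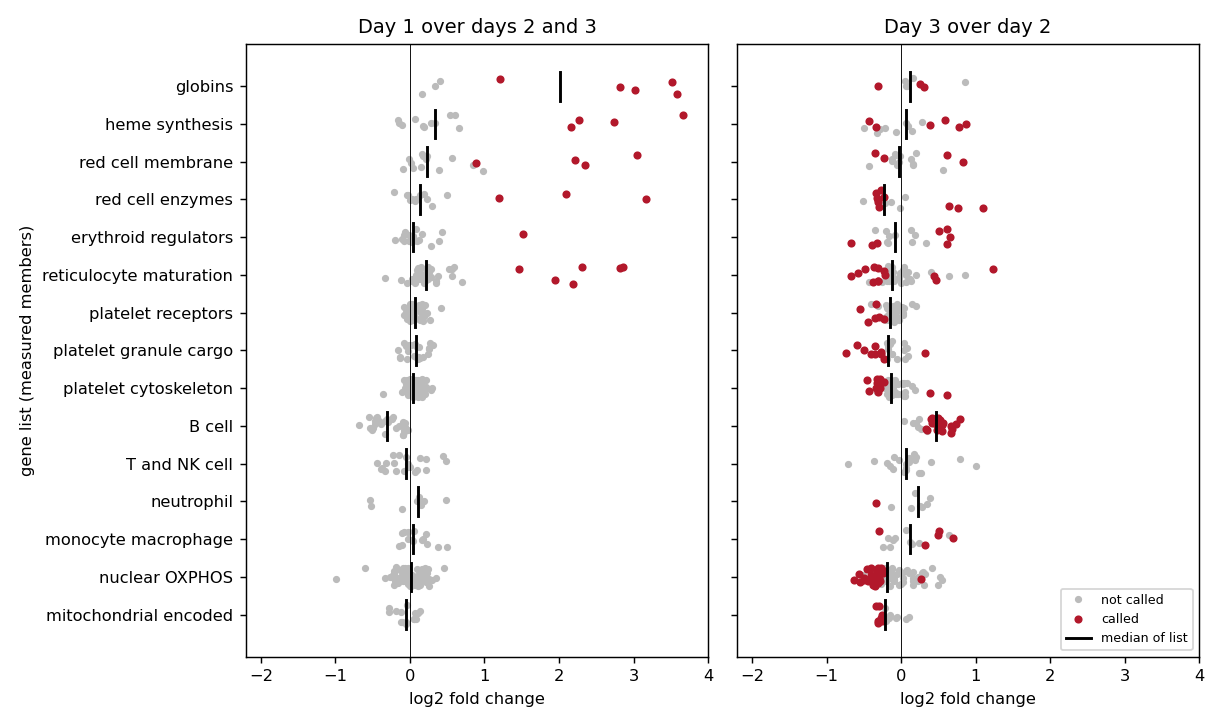
Log2 fold change of each measured gene of 15 lists on day 1 over days 2 and 3 (left) and on day 3 over day 2 (right); red points passed an adjusted p of 0.05, grey points did not, and black bars are list medians. On the left every call among these lists lies in the 6 red cell lists, where the globin median is 2.01, and on the right the B cell median is 0.47.

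Relative to Hba-a1, the other red cell transcripts changed their proportions between days. Alas2 had 27.4 and 28.6 counts per 1000 Hba-a1 counts on day 1, 10.1 and 12.9 on day 2 and 17.4 and 22.2 on day 3. The order of days was the same in both genotypes. Hbb-b1 had 699 and 658 on day 1, 399 and 334 on day 2 and 453 and 404 on day 3. Bpgm had 7.66 and 5.72 on day 1, 4.27 and 3.62 on day 2 and 7.07 and 5.69 on day 3, so days 1 and 3 were alike. Slc4a1 had 0.939 and 0.962 on day 1, 0.502 and 0.695 on day 2 and 0.839 and 1.18 on day 3. Fech ran the other way, with 2.91 and 3.48 on day 1 and 3.40 to 6.92 on the later days, and Slc25a39 was nearly even, between 2.87 and 4.09 in all 6 libraries.

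**Figure D5:**
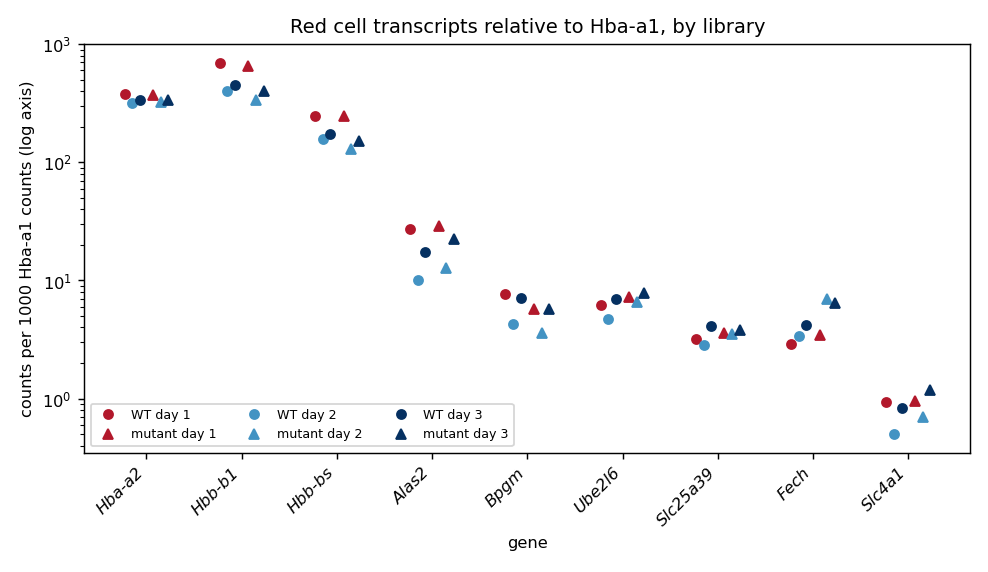
Counts of 9 red cell genes per 1000 Hba-a1 counts (log axis) in each library; circles are wild-type and triangles mutant libraries, coloured by day. Alas2 is highest on day 1, at 27.4 and 28.6, and lowest on day 2, at 10.1 and 12.9, while Slc25a39 stays between 2.87 and 4.09.

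The genes whose log2 CPM followed Hba-a1 most closely over the 6 libraries, among 3016 others with a mean of at least 10 CPM, were Hba-a2, Hbb-bs, Hbb-b1, Slc25a39, Ube2l6, Nck2, Fam220a, Alas2, Ybx3 and Bpgm, with Pearson values from 0.9997 down to 0.979. With 2 high and 4 low libraries these values mainly state the day 1 difference. Nck2, an adaptor of tyrosine kinase signalling, is the only 1 of them that was not called: it was at 153 and 145 CPM on day 1 and 111 to 119 CPM later, a log2 fold change of 0.38 ± 0.11.

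With day 1 as a term, 1417 genes (14.4%) were higher and 1010 (10.3%) lower in the mutant. With the replicate block 3929 of 9822 passed in all. Among the 55 genes 7 were higher and 3 lower, and 14 and 9 with the block, which compares the genotypes within each day. These counts were near the share of all genes with the block and below it without. Nothing is read from them about the 55 genes as a group. Fech was higher in the mutant by 0.52 ± 0.14 (edgeR adjusted p = 0.00568), whereas Isg15 was lower by -0.83 (adjusted p = 0.00282). Of the 4 adult globins 0 passed without the block: Hba-a1 differed by -0.07 ± 0.12 (adjusted p = 0.73), Hba-a2 by -0.07, Hbb-b1 by -0.23 ± 0.13 (adjusted p = 0.216) and Hbb-bs by -0.23. Alas2 differed by 0.19 ± 0.30 (adjusted p = 0.7). With the replicate block both beta chain genes passed, lower in the mutant, as they were on each of the 3 days: Hbb-b1 by -0.24 ± 0.07 (edgeR adjusted p = 0.002) and Hbb-bs by -0.24 ± 0.07 (adjusted p = 0.00238). Alas2 passed just under the threshold, higher by 0.17 ± 0.07 (adjusted p = 0.0493). The alpha chain genes did not pass with the block either, Hba-a1 at an adjusted p of 0.442 and Hba-a2 at 0.416. Without day 1, in the 4 later libraries alone, 1192 genes passed, 585 higher and 607 lower.

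Of the 55 genes, 41 have a promoter window in the RefSeq table, and 24.4% of these windows held a GATA match and 70.7% a CACC match. Among 53 genes of 5 red cell lists the shares were 32.1% and 67.9%, beside 16.9% and 64.5% over all tested genes. These shares describe the windows shown for Hba-a1, Hbb-bs and Alas2 among their kind and were not tested.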

How the data were processed

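Each library has 1 file, which per the file headers holds a raw count for every Entrez gene beside its length, as deposited by the authors. The tools named in the submitters' processing notes are CASAVA 1.8.2, Subread and featureCounts, and the build named there is mm10. Strand use, the treatment of multi-mapping reads and the other versions are not named in these sources, and the TruSeq RNA v2 kit named in the labels' protocols does not mark strand. RefSeq named 9636 of 9822 Entrez identifiers and GENCODE 2, and 184 are unnamed.

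Counts were fitted with edgeR 4.0.16 (robust quasi-likelihood, TMM) in R 4.3.3, two-sided, with Benjamini-Hochberg adjustment over all 9822 genes at 0.05. Terms were day 1 and genotype, and for other tests their interaction or a mean per day. limma 3.58.1 and DESeq2 1.42.0 were alternatives, beside other scalings, filters, covariates, a replicate block and left-out libraries. Fits were also run on simulated data whose means held only a genotype difference and planted changes. Those runs had no general difference between days, so nothing about the calls is read from them.

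The day, the gene lists and the tests were chosen with earlier results of these data known. Named genes were all called members and defining markers of 5 red cell lists, the 12 largest differences each way among called genes whose mean reached 10 CPM, with no overlap of libraries and no clone name, up to 4 called members of each other list, the 5 most abundant genes, the 5 smallest p each way for day 3 against day 2 and the interaction, and the 10 genes most like Hba-a1. Batch numbers pair the libraries by preparation day, per the labels, with same-day correlations of 0.603, 0.422 and 0.609. P-values measure the spread between pools together with the sampling noise of the counts. Where days 2 and 3 share a mean, the difference between those days enters that spread too. No counting intervals were computed, and genes of low level rest on few counts. Lists with no called member on day 1 besides those described were iron handling, megakaryocyte regulators, T and NK cells, neutrophils, monocytes, mast cells, endothelium, mitochondrial, ribosomal protein and translation genes. Values of a few named genes are not reported here.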

Additional observations from a re-analysis of the deposited data

Results flagged for a closer look

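Among 112 sets of values of the 4 later libraries tested, 7 held a library far from the other 3, and chance alone gives about 1 in 20. In single genes these were the lowest Hagh value, 1.27 CPM, the highest Hspa1b value, 0.898 CPM, the highest Ubac1 value, 1.97 CPM, and the lowest Vopp1 value, 3.20 CPM, all in genes of low level. In shares of counts they were the highest sum of the erythroid regulators, 0.125%, the lowest sum of nuclear oxidative phosphorylation genes, 0.304%, and the highest sum of T and NK cell genes, 0.00851%.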

How the results depend on the processing

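Against 58 genes called on day 1, library size alone gave 26, a mean of at least 10 CPM 14, a threshold of 0.01 36, red cell lists left out 30 and no genotype covariate 29. The replicate block gave 805, without day 2 1525 and without day 3 602, and single libraries left out gave 31 to 305. Against 0 for the interaction, leaving out single libraries gave 0 to 1. Against 1718 genes between days 3 and 2, DESeq2 gave 1119, a mean of at least 10 CPM 916, a threshold of 0.01 915, no genotype covariate 0 (563 at an unadjusted p under 0.05 in edgeR) and days 2 and 3 alone 1004, with 97 to 2033 when single libraries were left out. There the split between higher and lower moved with scaling: 592 and 1653 with DESeq2 size factors, 894 and 896 with upper-quartile factors and 2287 and 164 with library size alone. Against 2427 genes for genotype, the replicate block gave 3929 and leaving out day 1 gave 1192. The cause of these differences was not tested. No named gene reversed its direction in any fit run. Of 29 named on day 1, 16 passed in every fit, and each of 10 named between days 3 and 2 lost its call in the fit without the genotype covariate. With 2 or 3 residual degrees of freedom and 1 pool for each genotype and day, differences under about the spread between pools were not detectable.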
